A study of Mus musculus with 18 samples.

Results

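The genes described here are the 9 listed genes of the mouse major histocompatibility complex (MHC) class II pathway. *H2-Aa*, *H2-Ab1* and *H2-Eb1* encode chains of class II molecules. *Cd74* encodes the invariant chain, and *Ciita* the class II transactivator. *H2-DMa* and *H2-DMb1* encode the peptide exchange factor H2-M, and *H2-Oa* and *H2-Ob* its modulator H2-O. All 9 genes were taken by name from an existing list. All were matched, among 55401 gene lines in the table of endothelial cells and 22612 in the table of EO771 tumour cells. The study sequenced RNA from 18 libraries in 6 groups of 3. Blood vessel endothelial cells (BECs) came from the mammary fat pads of mice without tumours (BEC normal) or from EO771 primary tumours (BEC tumour). High endothelial venule endothelial cells (HECs) came from inguinal lymph nodes of mice without tumours (HEC normal), or from lymph nodes labelled as holding metastases (HEC tumour). EO771 is a mouse breast cancer cell line, and its cells were given 12-HETE, a lipid made from arachidonic acid by 12-lipoxygenase, at 100 nM for 48 h, or only its vehicle, saline with 2% DMSO. The hosts were wild-type C57BL/6 mice of 5 to 6 weeks, and both endothelial types were sorted as CD45- and CD31 high, with HECs further sorted for the lymph node addressin PNAd. The study's figure legends give 3 independent experiments for the endothelial and the EO771 RNA sequencing. Neither the legends nor the labels say whether the 3 libraries of a group came from separate mice or cultures. The p-values measure the spread between these libraries, and the source of that spread is not known.

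MHC class II molecules display peptides from engulfed or internal proteins to CD4+ T cells. They are made mainly by dendritic cells, B cells and macrophages, and other cells, endothelium among them, can make them when interferon gamma induces *Ciita*. The invariant chain guides new class II molecules to the endosome, where cathepsins cut it down and H2-M exchanges its last fragment for a peptide, and CIITA acts through factors that already sit on paired X and Y elements of class II promoters.

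In GRCm38, the build of the files, 7 of the 9 genes lie close together on chromosome 17: *H2-Oa* at 34092340 to 34095234, *H2-DMa* at 34119541 to 34139101, *H2-DMb1* at 34153072 to 34160230, *H2-Ob* at 34238903 to 34254414, *H2-Ab1* at 34257689 to 34269419 and *H2-Eb1* at 34305867 to 34316674 on the plus strand, and *H2-Aa* at 34282744 to 34287823 on the minus strand. *Ciita* lies on chromosome 16 at 10480059 to 10528418, plus strand, and *Cd74* on another chromosome. Annotated exons of *H2-DMa*, *H2-Oa* and *Ciita* overlap those of *Brd2*, *BC051537* and *Dexi* on the other strand, and those of *Cd74* overlap *Mir5107*. Whether reads were counted by strand is not given in the sources used here, so reads in these overlaps could belong to either gene. *H2-DMb1* and its neighbour *H2-DMb2* are near copies, and reads could be split between them.

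RefSeq promoter sequences (GRCm38.p6, 250 bases before to 50 after the start of transcription) were at hand for 6 of the 9 genes. They are shown because the X and Y elements are where CIITA acts, and because these genes did not all move together. Searched on both strands, the X core GNAAC followed 26 to 36 bases further on by the Y core GATTGG, counted from first base to first base, was found in 5 of the 6 genes, against 219 of all 32851 promoters of that length, 0.667%. The letters searched were settled after the sequences had been seen, so the match is a description. The 5 stretches follow, 5′ to 3′ on the coding strand, with both cores in capitals.
H2-Aa, chr17:34287863-34287908, minus strand: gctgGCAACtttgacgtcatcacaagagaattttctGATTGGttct
H2-Eb1, chr17:34305772-34305816, plus strand: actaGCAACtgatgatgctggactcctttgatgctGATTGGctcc
H2-DMb1, chr17:34153093-34153138, plus strand: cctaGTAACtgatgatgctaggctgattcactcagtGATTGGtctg
H2-Oa, chr17:34092299-34092344, plus strand: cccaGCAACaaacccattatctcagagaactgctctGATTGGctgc
H2-Ob, chr17:34238814-34238856, plus strand: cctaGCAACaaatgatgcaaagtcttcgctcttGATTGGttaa
The X core began 76 to 94 bases before the start of transcription in these genes, with the Y core 29 to 32 bases further on. Neither listed promoter of *H2-DMa* held the pair within this window. The Y core on its own was in 16.1% and the X core on its own in 84.8% of all promoters.

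Depth in the endothelial table was 56.4 to 79.4 M per library, but its values fell on steps of about 3.74, so that 1 fragment was worth more than 1 unit, and the totals correspond to 15.1 to 21.2 M steps. The EO771 libraries held 17.3 to 18.6 M counts. The limit that a count of 0 allows is taken as 3 fragments per library, which is 11.2 units in the endothelial table and 3 counts in EO771, and it covers counting error only. Levels below are counts normalised by DESeq2 size factors, given for replicates 1, 2 and 3 in that order, with mean ± SD. A gene is called changed when DESeq2's Wald test gave a Benjamini-Hochberg adjusted p under 0.05 over all genes tested, with a change of more than 2-fold. With 3 libraries against 3, an exact permutation test of 1 gene cannot go below 0.1, so calls rest on the model fitted across all genes. Genes with a mean value of at least 10 were tested. That left 7 of the 9 class II genes in endothelium, without *Ciita* and *H2-Oa*, and 3 in EO771, *H2-Eb1*, *Cd74* and *H2-DMa*.

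The class II genes were at their highest in BECs from tumours. Against BECs from normal fat pad, 5 of the 7 tested genes rose, *H2-Aa*, *H2-Ab1*, *H2-Eb1*, *Cd74* and *H2-Ob*, and none fell, where 12.4% of all genes tested rose and 23.3% moved either way. *H2-DMa* and *H2-DMb1* were not called. By mean level, 8 of the 9 genes were highest in BEC tumour among the 4 endothelial groups, and *H2-DMa* was highest in BEC normal. The plot of class II genes by endothelial library shows each value.

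**Figure D1:**
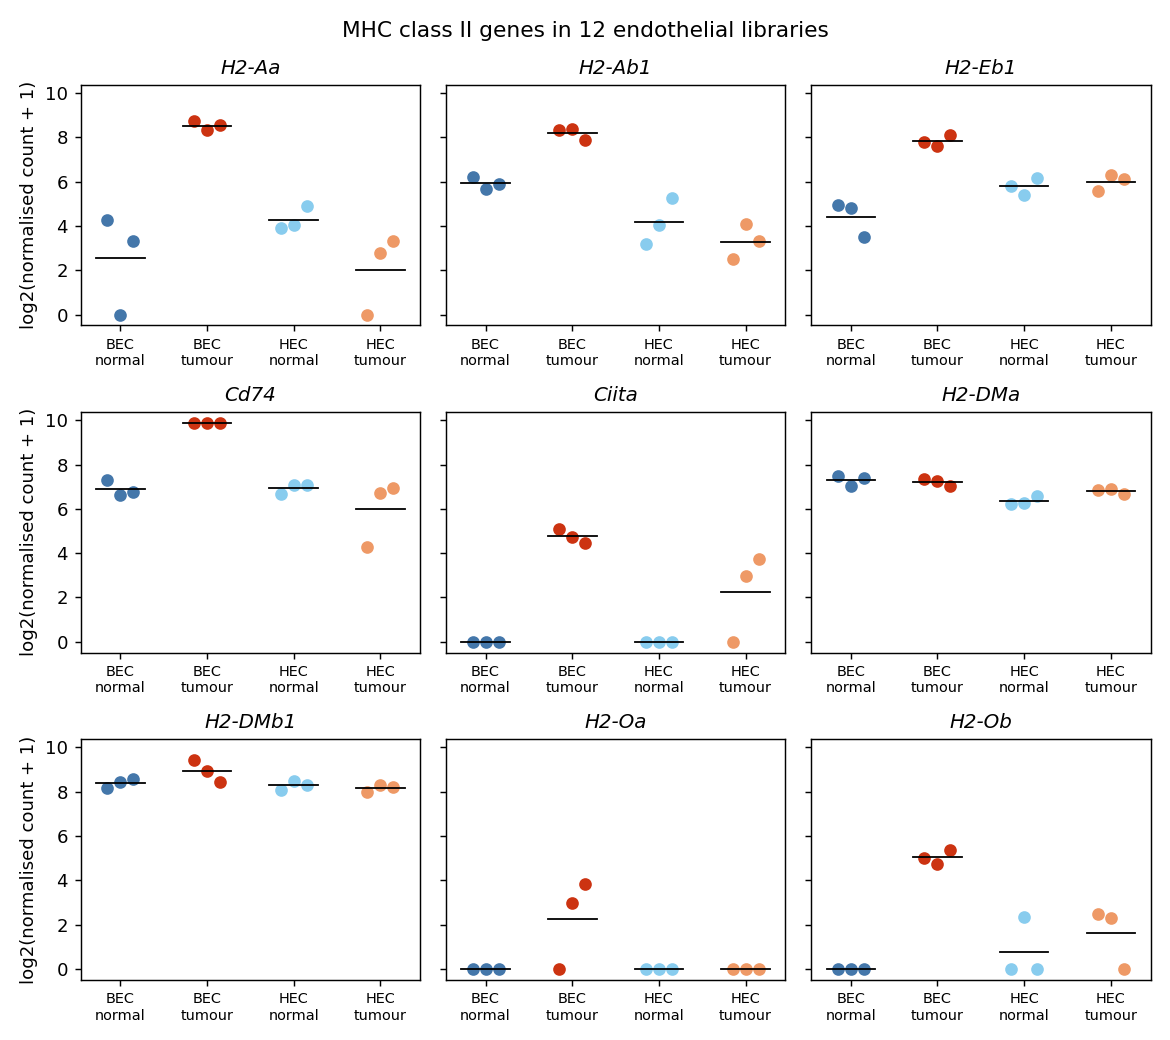
Levels of the 9 MHC class II genes in 12 endothelial libraries. The vertical axis is log2(normalised count + 1), each point is 1 library and each bar the mean of 3 log2 values; *H2-Aa*, *H2-Ab1*, *H2-Eb1*, *Cd74*, *Ciita* and *H2-Ob* are higher in all 3 BEC tumour libraries than in any other library, and *H2-DMa* and *H2-DMb1* lie in a narrow band.

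*H2-Aa* encodes the alpha chain of the class II molecule I-A. Its normalised counts were 18.5, 0 and 9.14 in BEC normal, 421, 318 and 380 in BEC tumour, 14.2, 15.3 and 28.7 in HEC normal and 0, 5.92 and 8.85 in HEC tumour. The lowest BEC tumour library was far above every other library, and the HEC tumour libraries held under 3 fragments each. BEC tumour stood above BEC normal by 5.31 ± 0.81 on the log2 scale (SE, adjusted p = 2.79e-10, DESeq2). The size of this change rests on few fragments in BEC normal, and it ran from 4.73 to 6.30 when each library was left out in turn.

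*H2-Ab1* encodes the beta chain that pairs with it. Its normalised counts were 72.3, 50.6 and 58.9 in BEC normal, 320, 332 and 234 in BEC tumour, 8.11, 15.3 and 37.3 in HEC normal and 4.62, 15.8 and 8.85 in HEC tumour. The order of the groups was BEC tumour, BEC normal, HEC normal, HEC tumour, where the groups overlapped only within HECs. The rise in BECs with tumour was 2.28 ± 0.50 (adjusted p = 1.82e-05), the smallest of the 4 rises whose size was resolved.

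*H2-Eb1* encodes the beta chain of the other class II molecule, I-E, and its RNA alone does not show that I-E was made. Its normalised counts were 29.98, 27.1 and 10.2 in BEC normal and 220, 196 and 274 in BEC tumour, a rise of 3.36 ± 0.41 (adjusted p = 2.48e-15). In HECs it held 54.8, 41.7 and 69.8 without tumour and 47.3, 77.0 and 68.6 with tumour, above every BEC normal library and below every BEC tumour library. The I-E alpha chain gene, annotated as a pseudogene in this build, was listed at 0 in all BEC tumour and HEC tumour libraries, with 0 to 8.82 in BEC normal and 6.09 to 25.8 in HEC normal, and was too low to be tested.

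*Cd74*, the invariant chain, had the highest level of the family in tumour BECs per unit of length. Its normalised counts were 157, 97.7 and 109 in BEC normal and 934, 933 and 939 in BEC tumour, so the spread among tumour BECs was 3.12 (SD) around a mean of 935. The rise was 2.95 ± 0.47 (adjusted p = 1.97e-09). HECs held 101.4, 132 and 135 without tumour, the range of BEC normal, and 18.5, 104 and 122 with tumour, where the first library lay well under the other two.

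*Ciita* was at 0 in all BEC normal and all HEC normal libraries. In BEC tumour it held 33.4, 25.4 and 20.9, each above the limit that a count of 0 allows, and in HEC tumour 0, 6.91 and 12.2, none above it by deposited value. Against that limit per library, BEC tumour was at least 2.31-fold higher than BEC normal. The gene had too few fragments for the main test. Without the filter on low values its adjusted p was 0.00088 for BEC tumour against BEC normal, and 0.309 for HEC tumour against BEC tumour.

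The genes for H2-M carried counts in every endothelial library. *H2-DMa* held 180, 129 and 170 in BEC normal and 160, 151 and 132 in BEC tumour, which overlapped, with a difference of -0.12 ± 0.22 (adjusted p = 0.673, interval -0.55 to 0.31). *H2-DMb1* held 287, 342 and 379 in BEC normal and 680, 488 and 344 in BEC tumour, with a difference of 0.58 ± 0.25 (adjusted p = 0.0399) that did not reach 2-fold. BEC tumour replicate 3 overlapped with normal BECs for this gene, and the difference went from 0.31 to 0.80 over the leave-outs. Its near copy *H2-DMb2* did not differ between BEC tumour and BEC normal, with means of 49.9 ± 8.23 and 50.3 ± 19.7 (adjusted p = 0.997, log2 difference -0.01 ± 1.19).

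The genes for H2-O, which is known mainly from B cells and dendritic cells, were low throughout. *H2-Ob* was at 0 in all BEC normal libraries and held 31.5, 25.4 and 40.1 in BEC tumour, at least 2.82-fold higher against the limit per library (adjusted p = 0.000456). In HECs it held 0, 4.07 and 0 without tumour and 4.62, 3.95 and 0 with tumour, 1 fragment or none. *H2-Oa* was at 0 in 10 of the 12 endothelial libraries, with 6.77 and 13.1 in the other two, both BEC tumour, and was too low to be tested.

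The median log2 change of the 7 tested genes in BECs with tumour was 2.95, or 2.28 with *H2-Ob* set at its lower limit. On a scale like TPM (the value per exon length, scaled to a common total), means in BEC tumour ran in the order *Cd74* 22.2, *H2-DMb1* 12.0, *H2-Eb1* 4.71, *H2-Ab1* 4.602, *H2-Aa* 3.92, *H2-DMa* 1.71, *H2-Ob* 0.239, *H2-Oa* 0.186 and *Ciita* 0.111. In BEC normal the highest on this scale was *H2-DMb1* at 7.501, ahead of *Cd74* at 2.72. *H2-Eb1*, *H2-Ab1* and *H2-Aa* did not differ beyond their spread in BEC tumour, with SDs of 0.724, 0.915 and 0.555. The mean level of *Cd74* there lay above 51.8% of the genes tested, and that of *H2-Aa* moved from above 9.28% of genes in BEC normal to above 41.9%.

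The proportions within the family also differed between normal and tumour BECs. *H2-Aa* made 11.8%, 0% and 8.41% of the deposited *Cd74* value in the BEC normal libraries and 45.1%, 34.1% and 40.5% in BEC tumour. *H2-Ab1* made 46.1% to 54.2% of it in BEC normal and 24.9% to 35.6% in BEC tumour, so the alpha and beta chains of I-A moved in opposite directions relative to the invariant chain. *H2-Eb1* made 9.35% to 27.7% and 21.0% to 29.2%, which overlapped. These shares come from counts of 0 to 21 for *H2-Aa* in BEC normal and carry no test.

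RNA of leukocytes rose in the same libraries. The sort excluded cells with surface CD45, yet *Ptprc*, which encodes CD45, went from 24.7, 8.24 and 15.2 normalised counts in BEC normal to 855, 728 and 401 in BEC tumour (log2 5.35 ± 0.54, adjusted p = 5.56e-22). On lists of markers, 8 of 10 genes shared by all leukocytes rose, 14 of 14 genes of macrophages and monocytes, 6 of the 8 tested of B cells, 1 of the 2 tested of T cells, and, of the 6 tested of conventional dendritic cells, 2 rose and 1 fell. Summed CPM (the value as a share of the library total, on a common scale) of the shared leukocyte markers went from 25.1 to 32.8 in BEC normal to 146 to 240 in BEC tumour. No marker on the 5 lists was at 0 in all 3 BEC tumour libraries. In bulk libraries, fewer cells of a type and less RNA per cell cannot be told apart, and the part of leukocyte RNA in the class II rise was not tested.

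Macrophage genes had the largest values. *Csf1r*, the receptor for macrophage colony-stimulating factor, rose from a mean of 226 ± 65.3 to 3093 ± 1101 (log2 3.77 ± 0.36, adjusted p = 7.29e-25), and *Adgre1*, which encodes F4/80, from 2.53 ± 2.21 to 1790 ± 757 (adjusted p = 9.06e-12). The complement gene *C1qa* was at 0 in every BEC normal library and at 3847 to 6887 in BEC tumour, at least 492-fold higher. Summed CPM of the 14 markers ranged from 108 to 130 in BEC normal and from 1730 to 2426 in BEC tumour. *Cd68*, singled out after its values were seen, was high in every endothelial group, and without it the ranges were 6.26 to 13.2 and 894 to 1519. Per unit of length, *Cd74* at 21.8 to 22.5 in BEC tumour was close to *Csf1r* at 12.6 to 27.9 and below *C1qa* at 144 to 268.

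B cell markers had lower values than macrophage markers, and most of those tested rose with tumour. *Cd79a*, part of the B cell receptor, rose from a mean of 8.29 ± 8.38 to 67.3 ± 17.4 (adjusted p = 0.000562). Summed CPM of the B cell list went from 2.20 to 4.19 to 11.3 to 15.6. For conventional dendritic cells the sum was 7.19 to 7.87 in BEC normal and 8.63 to 9.80 in BEC tumour. Their growth factor receptor gene *Flt3* held 0 to 10.2 in BEC normal and 0 to 10.5 in BEC tumour, whereas *Itgax*, which encodes CD11c, went from 130 ± 8.55 to 263 ± 56.4 (log2 1.01 ± 0.39, adjusted p = 0.0187). Summed CPM of the T cell list went from 4.11 to 4.64 in BEC normal to 28.8 to 47.5 in BEC tumour. *Cd4*, the coreceptor for MHC class II, made most of this, with 0 to 3.53 normalised counts in BEC normal and 1412 to 2691 in BEC tumour (adjusted p = 0.000231). *Cd8a* and *Cd2* were at 0 in BEC normal and held 3.38 to 25.97 and 7.42 to 27.9 in BEC tumour, and *Cd3e*, part of the T cell receptor complex, was at 0 in BEC normal and seen in 1 BEC tumour library.

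Within tumour BECs, the class II total varied less between replicates than *Ptprc*, *Csf1r* or the shared leukocyte sum. The summed CPM of *H2-Aa*, *H2-Ab1*, *H2-Eb1* and *Cd74* was 28.3, 26.5 and 27.1 in replicates 1, 2 and 3, a narrow range. Replicates 2 and 3 were too close in this sum to be put in order. *Ptprc* stood at 12.8, 10.8 and 5.95 CPM, *Csf1r* at 59.5, 51.0 and 27.7 CPM, and the sum of shared leukocyte markers at 240, 218 and 146 CPM. Replicate 3 was the lowest for 30 of the 52 leukocyte markers on the 5 lists, and the B cell sum was highest in it at 15.6 CPM. The epithelial markers *Krt8*, *Krt18* and *Epcam* were highest in it too, at 33.2, 25.3 and 3.87 CPM. In replicates 1 and 2, *Krt8* held 0.526 and 2.67 CPM, *Krt18* 1.45 and 2.32 CPM, and *Epcam* 0.263 and 0.391 CPM. Per unit of *Ptprc*, the class II sum was 2.22, 2.44 and 4.55 in BEC tumour, 11.2, 21.3 and 12.3 in BEC normal, and 11.7, 16.8 and 9.13 in HEC normal. Outside BEC tumour these ratios rest on few *Ptprc* fragments, at 0.118 to 0.362 CPM in BEC normal and 0.179 to 0.435 CPM in HEC normal. In HEC tumour *Ptprc* was at 0 in replicates 2 and 3, which have no ratio, and replicate 1 had 15.25. Per unit of the shared leukocyte sum, the class II sum was 0.118, 0.122 and 0.186 in BEC tumour and 0.0937 to 0.124 in BEC normal, which overlapped. With 3 libraries no relation across them can be tested. All 5 calls in BECs were also made in each fit that left out 1 of the 12 libraries, BEC tumour replicate 3 included.

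**Figure D2:**
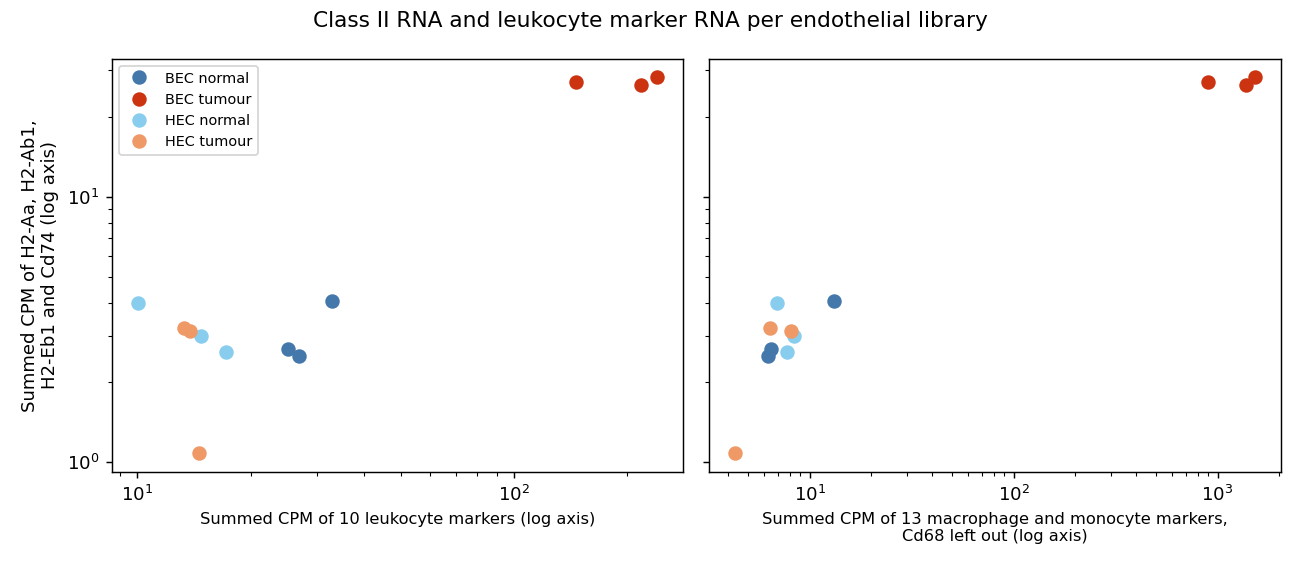
Summed CPM of *H2-Aa*, *H2-Ab1*, *H2-Eb1* and *Cd74* (vertical, log axis) in 12 endothelial libraries against the summed CPM of 10 shared leukocyte markers (left, log axis) or 13 macrophage and monocyte markers without *Cd68* (right, log axis). Each point is 1 library. The 3 BEC tumour libraries stand apart on both axes, and among them the class II sum stays between 26.5 and 28.3 CPM while the leukocyte sum runs from 146 to 240.

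Endothelial markers were high in all 12 libraries. *Cdh5*, which encodes VE-cadherin, had a mean of 63041 ± 3220 in BEC normal and 60813 ± 1380.5 in BEC tumour (log2 difference -0.05 ± 0.05), and *Pecam1*, which encodes CD31, 57960 ± 2175 and 41041 ± 284 (log2 -0.50 ± 0.04). Of 6 high endothelial markers, *Glycam1*, a ligand of high endothelium, held 39129 to 71579 in HECs and 0 in BECs. *Chst4* was at 0 in BECs and at 19906 to 61178 in HECs, except for 4.07 in HEC normal replicate 2. *Fut7* held 14255 to 66477 in HECs and 0 to 28.4 in BECs. The other markers did not separate the types this way. *Ackr1* was at 0 in HEC normal, and *Gcnt1* overlapped between HECs and BECs. *Ch25h* held 3450 to 3546 in HEC normal and 4539 to 5044 in BEC normal. The lymphatic list summed to 257 to 279 CPM in BEC normal, 73.5 to 85.5 in BEC tumour, 177 to 235 in HEC normal and 234 to 244 in HEC tumour, and its regulator *Prox1* held 0 to 41.5 normalised counts across the 12 libraries. Blood endothelial markers summed to 3410 to 3654 CPM in BEC normal and 2494 to 2555 CPM in BEC tumour, and 3 of 10 fell. Markers of epithelium, the lineage of EO771 cells, rose for 4 of 5 genes, with a sum of 3.61 to 6.92 CPM in BEC normal and 14.3 to 84.3 CPM in BEC tumour. Of the other lists, 3 of 6 lymphatic endothelial markers rose and 2 fell, 1 of 6 tested markers of fibroblasts and pericytes rose and 5 fell, and 1 of 5 tested high endothelial markers fell. Their part in the class II values was not tested.

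Other genes of the pathway, listed by function, gave a mixed picture in tumour BECs. Of 9 genes of antigen processing and class II turnover, 4 rose and none fell. *Ctss*, the cathepsin that makes the late cuts in the invariant chain and is abundant in antigen-presenting cells, went from a mean of 41.6 ± 19.2 to 5386 ± 1900 (log2 7.01 ± 0.92, adjusted p = 1.46e-13). The ubiquitin ligase gene *March1*, whose product takes class II molecules off the surface, rose by 2.87 ± 0.55, and the lysosomal proteases *Ctsb* and *Lgmn* by 1.35 ± 0.10 and 1.06 ± 0.11. *Ctsl*, named for its related role in invariant chain cutting, was not called, with means of 41669 and 31889. None of the 7 genes for factors that work with CIITA, such as *Rfx5*, was called in any endothelial comparison by DESeq2 or edgeR, and neither was any of 4 membrane proteins of the class II compartment. In tumour against normal BECs, 1 of the 7 and 3 of the 4 had an unadjusted p under 0.05 with DESeq2, each change being under 2-fold or not past the adjusted threshold.

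*Irf1*, an interferon-induced transcription factor that acts on the *Ciita* promoter, differed by 0.60 ± 0.33 between tumour and normal BECs (adjusted p = 0.109). Among 5 tested costimulation genes 1 rose and 1 fell. *Cd86*, a ligand of CD28 typical of antigen-presenting cells, was at 0 in all 3 BEC normal libraries and all 6 HEC libraries, and held 134 to 191 in BEC tumour, at least 14.5-fold higher. *Icosl*, the ligand of ICOS, fell from 250 ± 32.8 to 54.7 ± 4.73 (adjusted p = 0.0355).

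In HECs, tumour brought no called change in these genes. None of the 7 tested genes passed in HEC tumour against HEC normal with DESeq2 or with edgeR's quasi-likelihood test, where 4.58% of all genes tested rose, 3.21% fell and 7.8% were called either way. *H2-Aa* had an unadjusted p under 0.05, the 1 gene of the 7 that did. Its values, 14.2 to 28.7 without tumour and 0 to 8.85 with tumour, did not overlap, and the difference was -1.97 ± 0.87 (adjusted p = 0.0646). *Cd74* differed by -0.59 ± 0.48 (adjusted p = 0.363, interval -1.53 to 0.35), and without the low library, HEC tumour replicate 1, by -0.12. The intervals were -0.56 to 1.00 for *H2-Eb1* and -2.19 to 0.11 for *H2-Ab1*, so changes of about 2-fold were not resolved at this depth. *H2-DMa* went the other way, from 74.0, 76.3 and 95.6 to 114, 118 and 102, without overlap and without a call (0.44 ± 0.23, adjusted p = 0.135).

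The calls for *H2-Aa* and *H2-Ab1* in HECs depended on single libraries. Left out one at a time, BEC normal replicate 1, BEC normal replicate 2 or HEC tumour replicate 3 brought *H2-Aa* past the threshold (-1.963 with adjusted p = 0.0271, -1.963 with 0.00598 and -2.66 with 0.0366), over a range of adjusted p from 0.00598 to 0.237. Without HEC normal replicate 1 *H2-Ab1* passed, at -1.41 (adjusted p = 0.0372). Leukocyte markers moved in both directions in HECs with tumour. *Ptprc* went from 15.2, 12.2 and 29.6 to 4.62, 0 and 0 (log2 -3.71 ± 0.89, adjusted p = 0.000197), and 4 of 10 shared leukocyte markers fell and none rose, while their summed CPM overlapped (10.02 to 17.2 without and 13.3 to 14.6 with tumour). Of 14 macrophage markers, *Fcgr1* and *C1qc* were called higher, from 0 in all HEC normal libraries to 0 to 13.3 and 0 to 4.43. These values lie near or under the limit that a count of 0 allows, so the sizes of both changes are not resolved. *Spi1* fell from 38.3 ± 6.72 to 11.9 ± 1.67. Of the 6 tested dendritic cell markers, *Ccr7* rose from 14.8 ± 9.03 to 67.8 ± 23.5 (adjusted p = 0.000661) and *Clec9a* fell. Of the 8 tested B cell markers 2 fell, with sums of 14.5 to 15.1 CPM without and 7.41 to 7.92 CPM with tumour, and neither of the 2 tested T cell markers was called. The part of these markers in the HEC values was not tested. The neighbour *H2-DMb2* was at 0 in all 3 HEC tumour libraries and seen in 1 of the HEC normal libraries. *March1* rose by 2.08 ± 0.56.

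The change with tumour differed between the endothelial types. The difference between the changes, HECs less BECs, was called for 5 of 7 genes, all negative, where 12.1% of all genes tested were negative and 23.3% called either way. It was -7.28 ± 1.19 for *H2-Aa* (adjusted p = 6.38e-09), -3.54 ± 0.67 for *Cd74* (7.31e-07), -3.32 ± 0.77 for *H2-Ab1* (7.12e-05) and -3.14 ± 0.57 for *H2-Eb1* (2.34e-07). For *H2-Ob* its size was not resolved, since BEC normal was at 0 and HECs held at most 1 fragment, and its call (adjusted p = 0.0382) was lost in 8 of 12 fits that left out 1 library: BEC normal replicate 1 or 3, any BEC tumour replicate, HEC normal replicate 2, or HEC tumour replicate 1 or 2, with adjusted p up to 0.338. *H2-DMa* (0.56 ± 0.32, adjusted p = 0.142) and *H2-DMb1* (-0.70 ± 0.36, adjusted p = 0.1004) were not called. Shared leukocyte markers had a negative difference for 8 of 10 genes and macrophage markers for 12 of 14, and for *Ctss* it was -7.80 ± 1.31.

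**Figure D3:**
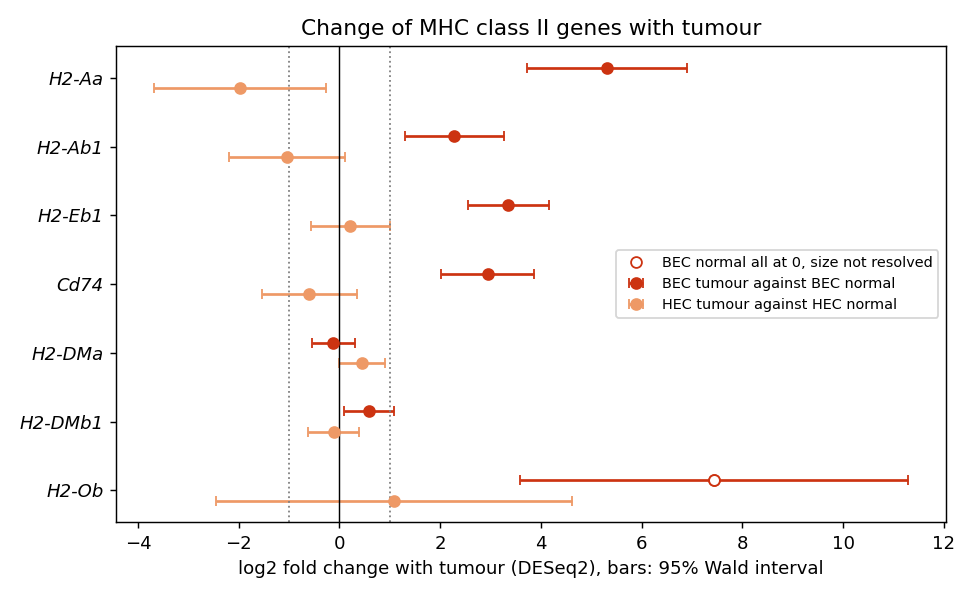
Log2 fold change with tumour of the 7 tested MHC class II genes in BECs (red) and HECs (orange), from 3 libraries a group. Points are DESeq2 estimates, bars 95% Wald intervals and dotted lines 2-fold; the 4 resolved rises in BECs, 2.28 to 5.31, lie to the right of their HEC counterparts, and the open point marks *H2-Ob*, whose BEC normal libraries were all at 0.

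With tumour in both, HECs stood below BECs. In HEC tumour against BEC tumour 4 of 7 genes were lower and none higher, where 10.7% of all genes tested were lower and 21.9% called either way. The log2 difference was -6.23 ± 0.85 for *H2-Aa* (adjusted p = 2.05e-12), -4.90 ± 0.56 for *H2-Ab1*, -3.52 ± 0.47 for *Cd74* and -1.84 ± 0.39 for *H2-Eb1*. *H2-DMb1* differed by -0.80 ± 0.25 (adjusted p = 0.00404), short of 2-fold, and reached it without BEC tumour replicate 3 (-1.01). *H2-Ob*, at -3.50 ± 1.66 (adjusted p = 0.0618), passed in 4 of 12 fits that left out 1 library, without BEC normal replicate 1 or any one HEC normal replicate, with adjusted p from 0.0333 to 0.0494. All 10 shared leukocyte markers and all 14 macrophage markers were lower in HEC tumour too, and *Cd79a* was not called (-1.002 ± 0.76). The class II sum of 4 genes was 1.08, 3.12 and 3.22 CPM in HEC tumour against 26.5 to 28.3 CPM in BEC tumour. This comparison shares its BEC tumour libraries with the comparison of BECs above.

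Without tumour, the types differed in 2 genes, in opposite directions. *H2-Eb1* was higher in HECs, with 41.7 to 69.8 against 10.2 to 29.98 (log2 1.31 ± 0.42, adjusted p = 0.00388), and *H2-Ab1* lower, with 8.11 to 37.3 against 50.6 to 72.3 (-1.58 ± 0.53, adjusted p = 0.00558). These 2 of 7 genes, 28.6%, compare with 32.2% of all genes tested, so the count is near the background. *H2-DMa* stood lower in HECs but short of 2-fold (-0.96 ± 0.23, adjusted p = 6.74e-05), and passed it without BEC normal replicate 2 (-1.10) or HEC normal replicate 3 (-1.09). The *H2-Eb1* call was lost without BEC normal replicate 3, at 0.95 (adjusted p = 0.0316), and *H2-Aa* (1.04 ± 0.83, adjusted p = 0.269) passed without BEC normal replicate 1, at 2.03 (adjusted p = 0.0323). *Cd74* did not separate the types, with means of 123 ± 18.6 in HECs and 121 ± 31.5 in BECs (log2 0.02, interval -0.91 to 0.95). *H2-DMb2* was lower in HECs (-3.71 ± 1.26, adjusted p = 0.0061), as was *Icosl* (-6.02 ± 1.02), while *Cd274*, which encodes PD-L1, was higher (2.42 ± 0.12). Leukocyte lists differed between the types as well. *Ptprc* held 16.1 ± 8.26 in BECs and 19.02 ± 9.31 in HECs (adjusted p = 0.746), but 2 of 10 shared leukocyte markers, *Cd53* and *Itgb2*, were lower in HECs, with sums of 10.02 to 17.2 CPM against 25.1 to 32.8 CPM. The summed CPM of B cell markers was higher in HECs, at 14.5 to 15.1 against 2.20 to 4.19. Of the 8 tested, 2 were called higher, *Fcrla* and *Pax5* (1.958 ± 0.21), and none lower, where 17.1% of all genes tested were higher. *Ms4a1* was at 0 in all libraries of both groups. *Csf1r* (-3.13 ± 0.39), *Aif1* and *Fcgr1* of the macrophage list were lower and *Cd68* higher, and of the 6 tested dendritic cell markers 3 were lower, *Itgax* (-2.17 ± 0.41) among them, and 1 higher. The part of these markers in the class II values was not tested.

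The genes whose levels across the 12 endothelial libraries were most like the mean of *H2-Aa*, *H2-Ab1*, *H2-Eb1* and *Cd74* were *Hba-a1* (Pearson r = 0.975), *Ctss* (0.971), *Tln2* (0.966), *Antxr1* (0.965) and *Cd37* (0.964), out of 13276 genes compared on log2(normalised count + 1). *Hba-a1* encodes a haemoglobin chain of red blood cells and *Cd37* a tetraspanin of leukocytes. *Hba-a1* rose from a mean of 42.7 in BEC normal to 1072 in BEC tumour, with 72.7 and 26.7 in HECs without and with tumour. For *Ciita* the 5 closest were *Jkamp* (0.946), *Stim2* (0.938), *C1s1* (0.937), *Gm16576* (0.928) and *Alg8* (0.924). The points share libraries and depth, and most of each pattern is the step between BEC tumour and the rest, so these values are a description.

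EO771 cells held a different set of class II transcripts. *H2-Eb1* was present in every library, at 146, 125 and 109 normalised counts with vehicle, and so were *Cd74* and *H2-DMa*. *H2-Aa*, *H2-Ab1*, *Ciita* and *H2-Oa* stayed at or under 3 counts in all 6 libraries, the limit that a count of 0 allows, *H2-Ob* was at 0 in all 6, and *H2-DMb1* held 1 to 8 counts. Scaled by exon length, vehicle cells held 12.3 ± 1.56 for *H2-Eb1*, 8.80 ± 3.18 for *Cd74* and 2.95 ± 0.790 for *H2-DMa* (mean ± SD, TPM-like scale). The tables were normalised separately, so these levels are not set against those of endothelium.

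Of the 3 tested genes, 1 fell with 12-HETE and none rose, where 7.79% of all genes tested fell, 2.38% rose and 10.2% were called either way. *Cd74* went from 58.4, 113 and 63.5 normalised counts with vehicle to 20.5, 18.7 and 14.8 with 12-HETE. The groups did not overlap, and the vehicle library with 113 stood above the other two. The change was -2.12 ± 0.39 (adjusted p = 4.85e-07), and the call was made in each fit that left out 1 library, with values from -2.30 to -1.77. That fit did not pair libraries by replicate number. With replicate number as a further term in DESeq2 the change was -2.07 ± 0.45 (adjusted p = 3.46e-05). *H2-Eb1* held 163, 134 and 160 with 12-HETE, which overlapped with vehicle (0.27 ± 0.20, adjusted p = 0.270, interval -0.12 to 0.66). *H2-DMa* held 43.5, 71.7 and 46.1 with vehicle and 41.1, 40.4 and 38.4 with 12-HETE (-0.43 ± 0.32, adjusted p = 0.269, interval -1.06 to 0.20). The plot of class II genes in EO771 shows these values.

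**Figure D4:**
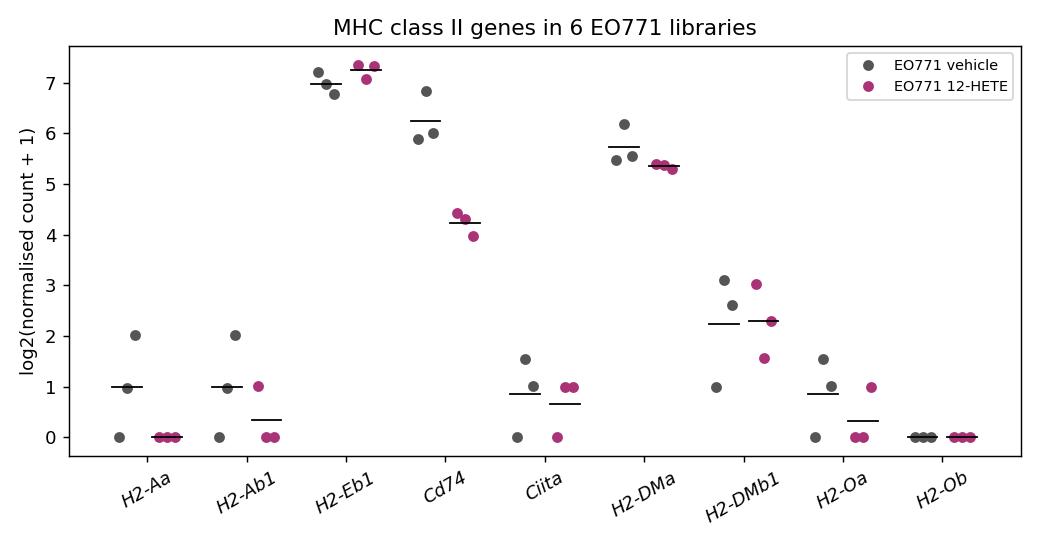
Levels of the 9 MHC class II genes in 6 EO771 libraries, 3 with vehicle (grey) and 3 with 12-HETE (purple). The vertical axis is log2(normalised count + 1), points are libraries and bars the means of 3 log2 values; *Cd74* separates the groups, *H2-Eb1* overlaps, and *H2-Aa*, *H2-Ab1*, *Ciita*, *H2-Oa* and *H2-Ob* lie at or near 0.

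*Irf1* fell alongside *Cd74* in EO771, from a mean of 2493 ± 85.0 to 916 ± 73.3 (-1.44 ± 0.10, adjusted p = 3.69e-45). *Rfx5*, which encodes a subunit of the complex on the X element, was the 1 of 7 CIITA partners that fell, from 289 ± 21.3 to 91.6 ± 8.75 (-1.66 ± 0.17, adjusted p = 3.78e-20). Among the 3 tested costimulation genes *Cd274* (-2.93 ± 0.22) and *Cd40* (-1.87 ± 0.24) fell. None of the 5 tested genes of antigen processing was called with DESeq2 or edgeR, 1 had an unadjusted p under 0.05 (*Ctsb*, -0.31 ± 0.10), and *Ctss* was at 0 in all 3 libraries with 12-HETE, against 1.98 to 6.14 with vehicle. Some markers on the leukocyte lists fell in the same libraries. The shared leukocyte sum was 18.98 to 25.6 CPM with vehicle and 10.7 to 12.0 CPM with 12-HETE, and most of it was *Cd53*, at 311 ± 57.9 and 156 ± 9.54 normalised counts (-0.99 ± 0.18, short of 2-fold). *Fcgr1* fell from 69.4 ± 30.9 to 3.35 ± 1.62 (-4.38 ± 0.62, adjusted p = 2.38e-11), the 1 called of 4 tested macrophage markers, and *Lck* held 7 to 20 counts with vehicle and 0 to 2 with 12-HETE. *Trac* held 102 to 164 counts and 73 to 88, and *Csf1r* 16 to 75 and 25 to 35. *Ptprc* held 0 to 4 counts, and *C1qa*, *C1qb* and *Cd3e* were at 0 in all 6 libraries. The part of these markers in the *Cd74* values was not tested.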

How the data were processed

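RNA was sequenced from sorted mouse endothelial cells (12 libraries) and EO771 cells (6 libraries). Per the study's methods, the authors aligned reads with STAR 2.6.0c to GRCm38, counted them with featureCounts 1.6.2 and used DESeq2 1.34.0. The deposited endothelial values were treated as estimated counts, because they are whole numbers on steps of 3.67 to 3.76 in each library, as if scaled and rounded after counting; how this was done is not given in the sources used here. The EO771 table deposited by the authors holds raw read counts. Labels and methods name different library kits. Both tables were used as deposited, with totals of 56.4 to 79.4 M and 17.3 to 18.6 M.

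DESeq2 1.42.0 (R 4.3.3) was fitted once over the 12 endothelial libraries and once over the 6 EO771 libraries, with group as the only term, on genes with a mean value of at least 10 (18511 and 11602 genes). The tumour change in HECs less that in BECs was a contrast of the first fit. Wald p-values were adjusted by Benjamini-Hochberg over all genes tested, and a call needed an adjusted p under 0.05 and over 2-fold. Intervals are 95%. Genes were matched by Ensembl identifier or, in EO771, by symbol, and coordinates and exon lengths came from GENCODE vM21 (GRCm38). Named genes were all class II genes, then called genes of the fixed pathway and marker lists, and the 5 genes most alike by Pearson correlation among genes with a mean of at least 100. The class II genes and all lists were chosen with earlier results of these data known.

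Equal replicate numbers were checked for pairing by the correlation of deviations from group means. In EO771 all 3 pairs were over 0.1 (0.109 to 0.345), and in endothelium the correlations were -0.03 to 0.21. The labels do not say what equal numbers share. The main fits did not use any pairing, in EO771 included, and a replicate block was fitted as an alternative. Alternatives were edgeR 4.0.16, TMM size factors, no filter, a replicate block, division by the step, fits of 2 groups alone and leaving out each library. The fitting code was tested on simulated data. Some genes of the lists are not reported here.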

Additional observations from a re-analysis of the deposited data

Results flagged for a closer look

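For 5 class II genes, what tumour did in HECs less what it did in BECs was below 0 by a DESeq2 contrast of both changes. On the log2 scale it was -7.28 ± 1.19 (SE) for *H2-Aa*, -3.54 ± 0.67 for *Cd74*, -3.32 ± 0.77 for *H2-Ab1*, -3.14 ± 0.57 for *H2-Eb1* and -6.35 ± 2.67 for *H2-Ob*. The last of these has no resolved size, because all 3 BEC normal libraries were at 0.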

How the results depend on the processing

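The rises of *H2-Aa*, *H2-Ab1*, *H2-Eb1*, *Cd74* and *H2-Ob* in tumour BECs and the fall of *Cd74* in EO771 kept their direction and call under every alternative run. Between HEC normal and BEC normal the number of genes called went from 2 to 1 with only those groups in the fit, and ran from 1 to 3 when each library was left out. Between HEC tumour and HEC normal it went from 0 to 1 with TMM size factors (*H2-Aa*, adjusted p = 0.0302) and from 0 to 1 with no filter (*Ciita*, adjusted p = 0.0343, with HEC tumour libraries at or under 3 fragments), and ran from 0 to 1 over the leave-outs. *Cd74* between HEC normal and BEC normal, 0.02, changed sign without BEC normal replicate 2 (-0.12) or 3 (-0.06) and without HEC normal replicate 2 (-0.03) or 3 (-0.05), over a range of -0.12 to 0.25, and was not called in any of these fits. *H2-Ob* between HEC tumour and BEC tumour passed under edgeR (adjusted p = 0.0391), TMM size factors (0.00895), no filter (0.0473), the step (0.0341) and 2 groups alone (0.000959). Without HEC normal replicate 2 it had no value for HEC normal against BEC normal, since all libraries left were at 0. The cause of these changes was not tested.

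With the replicate block, the contrast of tumour changes for *H2-Ob* was no longer called (-6.26, adjusted p = 0.0846), nor was it after division by the step (adjusted p = 0.132). *Cd74* between HEC normal and BEC normal had a log2 difference of -0.040 under the block (adjusted p = 0.954). The block changed no other call on a class II gene, and in EO771 *Cd74* was at -2.07 (adjusted p = 3.46e-05). Few fragments limit *Ciita*, *H2-Oa* and *H2-Ob* in every group, *H2-Aa* in BEC normal, and *H2-Aa* and *H2-Ab1* in HECs.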
